A study of Mus musculus with 2 samples.

Results

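Genes for folding, translocation and degradation of proteins in the endoplasmic reticulum (ER) were measured in islet cells of wild-type (WT) mice and of mice fed a high-fat diet (HFD). The set was a fixed list of 52 genes out of 31053 in the deposited count tables, chosen by name and role with earlier results of these data known. The islet donors were C57/B6 males, 16 weeks old in both groups, and the labels name no transgene or deletion. HFD mice ate 60% of their kcal as fat from an age of 6 weeks, over 10 weeks in all, while WT mice had standard chow per the study's methods. Dead cells were removed with a kit before droplets were made. Islets of 4 mice were pooled into each library, so each group held 1 library, the spread between mice could not be measured and no test of diet was possible. Every interval below covers counting error only, and a mouse, batch or dissociation effect cannot be told apart from diet.

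A secreted protein enters the ER through the Sec61 channel, where the signal peptidase removes its signal peptide. For glycoproteins, sugars are added by the oligosaccharyltransferase (OST). Chaperones led by BiP (Hspa5) hold it while isomerases form its disulfide bonds, and proteins that fail to fold are sent back to the cytosol and destroyed by ER-associated degradation (ERAD). When unfolded protein builds up, the sensors Ire1 (Ern1), Perk and Atf6 switch on genes for all of these steps, Ire1 by splicing the mRNA of the transcription factor Xbp1. β cells carry one of the heaviest loads of secretory protein of any cell, since insulin mRNA makes up most of their transcripts. Counts of a 3-prime library do not show whether Xbp1 was spliced or whether Atf6 was cleaved.

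Many of these genes share short promoter elements through which Atf6 and Xbp1 act, and these were looked up to see which members hold one. The promoter windows were those of RefSeq (GRCm38.p6), 250 bases before to 50 bases after each start site, and 44 of the 52 members had one. Hyou1, Manf, Derl1, Atf6, Ssr2, Sec61a1, Spcs3 and Ostc had none in the table. The ER stress element (ERSE) was searched as CCAAT, then any 9 bases, then CCACG. ERSE-II was ATTGG, then any single base, then CCACG, and the core of the unfolded protein response element (UPRE) was TGACGTG, all on both strands. ERSE and ERSE-II share their CCACG end, and none of the matches found below was counted for both. ERSE was found in 10 of the 44 members (22.7%) against 37 of 27025 genes with a window (0.137%). ERSE-II was found in 2 members (4.55%) against 12 genes (0.0444%), and the UPRE core in 3 members (6.82%) against 601 genes (2.22%). With any of these elements there were 14 members. Of these, 7 were chaperones, 3 isomerases and 4 ERAD genes, while none of the 2 sensor genes, 7 translocon genes, 2 signal peptidase genes and 5 OST genes with a window held one. The ERSE and ERSE-II matches are shown to compare the bases between the fixed ends, which are in capitals, each read in the direction of the element; Hsp90b1 has a pair.
Calr: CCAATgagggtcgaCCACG
Canx: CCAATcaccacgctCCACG
Creld2: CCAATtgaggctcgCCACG
Derl3: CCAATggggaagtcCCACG
Dnajc3: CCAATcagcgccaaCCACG
Ero1lb: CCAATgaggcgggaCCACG
Hsp90b1: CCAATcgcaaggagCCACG
Hsp90b1: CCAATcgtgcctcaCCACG
Hspa5: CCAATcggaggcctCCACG
Pdia6: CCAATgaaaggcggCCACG
Syvn1: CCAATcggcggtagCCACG
Dnajb11: ATTGGcCCACG
Herpud1: ATTGGgCCACG

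The 250 bases before the start site are shown for 5 members on which the β-cell results below turn, with the elements in capitals on the strand of the gene. For Hspa5 these lay at chr2:34771840-34772089 (plus strand), for Herpud1 at chr8:94386179-94386428 (plus strand) and for Creld2 at chr15:88819396-88819645 (plus strand). Those of Derl3 lay at chr10:75893148-75893397 (plus strand) and those of Canx at chr11:50325674-50325923 (minus strand). A match is a string of letters and was not shown to be bound in these cells.
Hspa5: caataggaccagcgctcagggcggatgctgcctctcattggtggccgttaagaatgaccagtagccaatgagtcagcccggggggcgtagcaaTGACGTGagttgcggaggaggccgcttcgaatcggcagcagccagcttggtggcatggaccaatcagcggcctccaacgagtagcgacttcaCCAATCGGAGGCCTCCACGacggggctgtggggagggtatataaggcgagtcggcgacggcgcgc
Herpud1: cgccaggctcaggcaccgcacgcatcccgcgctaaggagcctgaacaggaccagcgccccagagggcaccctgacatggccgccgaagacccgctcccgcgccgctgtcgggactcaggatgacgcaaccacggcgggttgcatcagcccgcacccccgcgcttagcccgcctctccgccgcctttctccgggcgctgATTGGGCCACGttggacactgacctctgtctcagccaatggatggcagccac
Creld2: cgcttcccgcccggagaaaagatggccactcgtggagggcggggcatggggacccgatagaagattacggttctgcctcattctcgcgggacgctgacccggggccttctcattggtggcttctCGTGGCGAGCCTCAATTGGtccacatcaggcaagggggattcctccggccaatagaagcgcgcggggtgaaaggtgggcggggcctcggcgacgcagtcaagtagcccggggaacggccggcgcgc
Derl3: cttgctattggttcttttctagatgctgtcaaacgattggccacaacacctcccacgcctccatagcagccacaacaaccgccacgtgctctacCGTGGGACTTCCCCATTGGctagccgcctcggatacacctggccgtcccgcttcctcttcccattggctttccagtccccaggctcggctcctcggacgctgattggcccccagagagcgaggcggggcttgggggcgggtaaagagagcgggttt
Canx: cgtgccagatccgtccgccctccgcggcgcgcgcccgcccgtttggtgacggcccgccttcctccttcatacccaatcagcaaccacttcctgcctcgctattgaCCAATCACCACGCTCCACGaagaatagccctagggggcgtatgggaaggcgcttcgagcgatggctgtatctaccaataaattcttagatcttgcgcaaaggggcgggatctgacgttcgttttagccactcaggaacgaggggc

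The libraries differed in depth. WT held 3895 barcodes with 73843674 unique molecular identifiers (UMIs) and HFD 8951 barcodes with 94375138 UMIs, and 9 barcode sequences occurred in both. With barcodes of at least 500 genes and at most 20% mitochondrial UMIs, and the highest doublet scores left out, 2498 WT and 6672 HFD cells remained, of which 336 and 1371 lay in clusters left unnamed. From marker genes, 1695 WT and 4598 HFD cells were called β-like, 55 and 196 α-like, 50 and 112 δ-like, and 172 and 150 endothelial-like. Insulin mRNA was 60.8% of the UMIs of WT and 57% of those of HFD β-like cells. The median β-like cell held 28369 UMIs in WT and 12566.5 in HFD. Levels were therefore expressed per 1000000 UMIs of the same cells (CPM), and the members together came to 315 UMIs per WT β-like cell and 181 per HFD β-like cell. A count of 3-prime tags does not grow with transcript length, so CPM can be set side by side between genes as tags. Acinar genes, a sign of exocrine RNA, were higher in HFD in every class. Their 10 genes summed to 191 CPM in WT against 607 CPM in HFD β-like cells, and the ratio was 3.10 in α-like, 3.51 in δ-like and 2.55 in endothelial-like cells. The part of this RNA in the values below was not tested.

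In β-like cells the members together made up 9840 CPM in WT against 12772 CPM in HFD, a ratio of 1.30 (95% counting interval 1.29 to 1.30). Of the 52 members, all with at least 50 UMIs, 45 were higher in HFD, against 44.9% of the 12017 genes tested by the same minimum. Their median log2 ratio of HFD to WT was 0.27, beside -0.03 for all genes tested. At least 1.5-fold higher were 7 members, where 3.47% of all genes passed that fold, and 0 members were 1.5-fold lower, where 5.53% of all genes did. Abundant genes were higher in HFD as a whole: among 508 genes of at least 100 CPM, 76.8% were higher and the median log2 ratio was 0.19. The 31 members of that level had a median of 0.29, 28 of them were higher, and 5 were 1.5-fold higher beside 2.95% of the abundant genes and 0 were 1.5-fold lower beside 3.15%. By arm, the summed ratio was highest for ERAD (1.55) and lowest for the sensors (0.983), with chaperones at 1.36, the translocon at 1.31, OST at 1.28, the signal peptidase at 1.24 and the isomerases at 1.16.

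**Figure D1:**
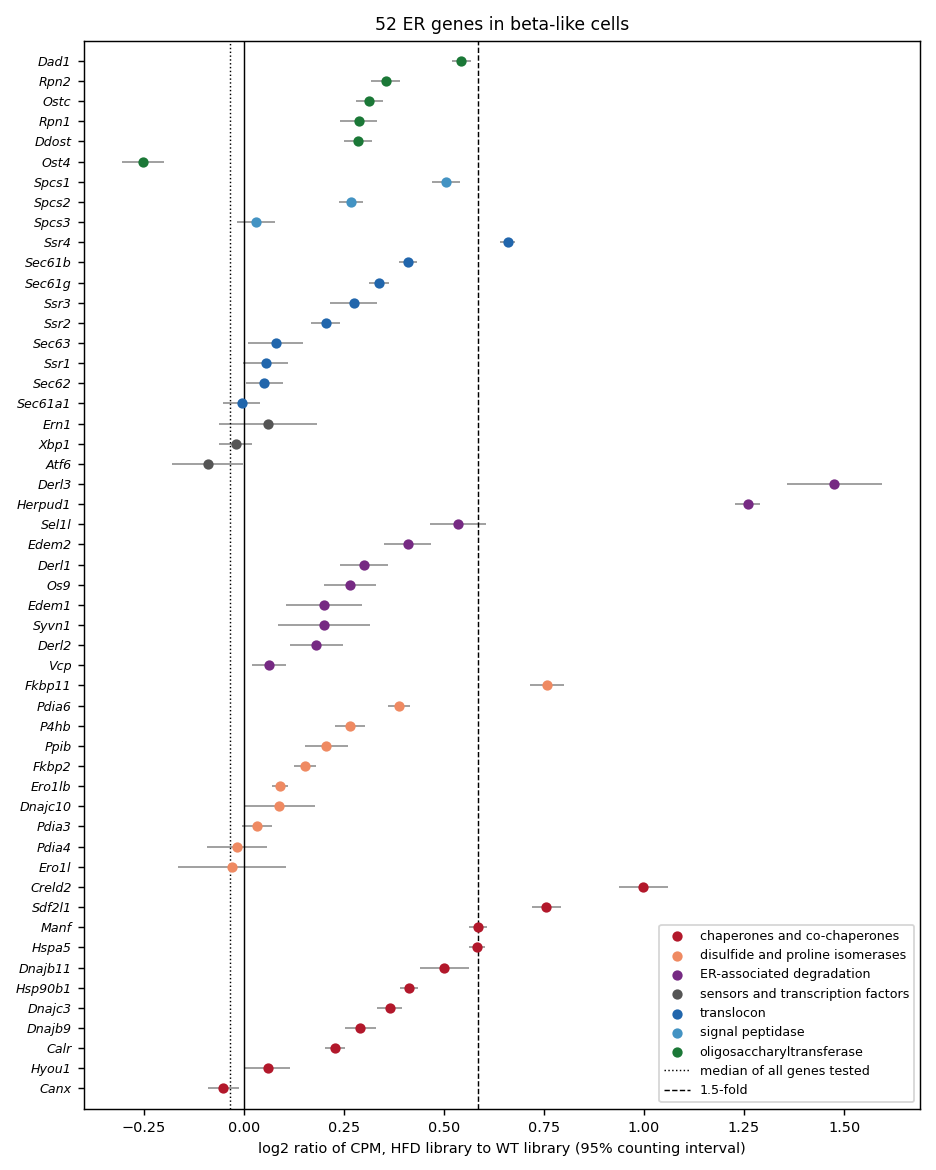
Log2 ratio of CPM in HFD to WT β-like cells for each of the 52 members, coloured by functional arm, with 95% counting intervals as bars, the median of all genes tested as a dotted line and 1.5-fold as a dashed line. Derl3, Herpud1 and Creld2 lie farthest to the right, and Ost4 at -0.25 lies farthest to the left.

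Among the chaperones and their partners, 10 of 11 were higher in HFD β-like cells and the median log2 ratio was 0.41. Creld2, an ER protein induced by unfolded protein, had 57.4 CPM in WT (55.4 to 59.4) against 115 CPM in HFD (112 to 117), with a ratio interval of 1.92 to 2.08. Sdf2l1, a partner of BiP and its J proteins, was at 170 and 287 CPM (log2 ratio 0.76). Manf, a secreted protein that is kept in the ER and binds BiP, was at 440 and 660 CPM (0.59) and lay just inside the 1.5-fold limit. BiP itself lay just outside it, with 591 CPM in WT against 885 CPM in HFD (0.58). At the other end stood Calr, a lectin chaperone that holds glycoproteins, at 429 and 502 CPM (0.23), and Hyou1, the nucleotide exchange factor of BiP, at 82.9 and 86.4 CPM (0.06). Canx, the membrane-bound lectin chaperone, was the one member of this arm that was lower in HFD, at 191 and 185 CPM (-0.05), although its promoter holds an ERSE. The remaining members, Dnajb9, Dnajc3, Hsp90b1 and Dnajb11, lay between 0.29 and 0.50.

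The arm of disulfide and proline isomerases differed less, with a median log2 ratio of 0.12 and 8 of 10 genes higher. Fkbp11, a proline isomerase of secretory cells, stood apart with 129 CPM in WT against 218 CPM in HFD (log2 ratio 0.76). Pdia6, a disulfide isomerase, was at 307 and 401 CPM (0.39), and P4hb, the founding disulfide isomerase, at 180 and 217 CPM (0.27). Lowest were Ero1l, an oxidase that recharges the isomerases, with 15.3 and 15.05 CPM (-0.03), Pdia4 with 48.3 and 47.8 CPM (-0.02) and Pdia3 with 189 and 193 CPM (0.03). The interval of each of these 3 held a ratio of 1. Ero1lb, the oxidase typical of β cells and the most abundant gene of the arm, differed little, with 622 CPM in WT against 662 CPM in HFD (0.09). Ppib and Fkbp2, both proline isomerases, and Dnajc10, a reductase, lay between 0.09 and 0.21.

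All 10 ERAD genes were higher in HFD β-like cells with intervals above 1. Such intervals were found for 2609 of the 12017 genes tested and for 370 of the 508 genes of at least 100 CPM. The largest ratios of the 52 members were those of 2 ERAD genes. Derl3, a channel component of ERAD found in highly secretory cells, had 13.7 CPM in WT (12.7 to 14.7) against 38.0 CPM in HFD (36.5 to 39.6), a log2 ratio of 1.48. Herpud1, which gathers the ERAD complex at the membrane, was at 199 CPM (195 to 202) and 475 CPM (470 to 480), a log2 ratio of 1.26. Sel1l, the adaptor of the ubiquitin ligase Syvn1, came next with 47.6 and 69.0 CPM (0.54). Lowest were Vcp, the ATPase that pulls proteins out of the membrane, at 153 and 160 CPM (0.06), Derl2 at 59.9 and 68.0 CPM (0.18) and Syvn1 at 19.4 and 22.3 CPM (0.20). The median log2 ratio of the arm was 0.28, below the log2 of its summed level (0.63), to which Herpud1 gave most as the most abundant of the 10. The other ERAD genes, Edem1 and Edem2 that pick misfolded glycoproteins, the lectin Os9 and Derl1, lay between 0.20 and 0.41.

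The sensors and the transcription factor that drive these genes were about level in total mRNA. Xbp1 had 166 CPM in WT against 164 CPM in HFD (log2 ratio -0.02), Ern1 at 17.9 and 18.7 CPM (0.06), both with intervals that held a ratio of 1, and Atf6 at 35.8 and 33.6 CPM (-0.09).

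For entry into the ER, 8 of 9 translocon genes were higher, with a median log2 ratio of 0.21. The highest was Ssr4, the δ subunit of the translocon-associated protein (TRAP) complex and in HFD the most abundant member of all, with 623 CPM in WT against 983 CPM in HFD (0.66). The small channel subunits followed, Sec61b at 498 and 662 CPM (0.41) and Sec61g at 410 and 518 CPM (0.34), while the pore-forming subunit Sec61a1 was at 131 CPM in both (-0.01). Sec62, which serves post-translational entry, was at 124 and 129 CPM (0.05), and Ssr1, the α subunit of TRAP, at 85.8 and 89.1 CPM (0.06). So genes of 1 complex were spread, with Ssr4 highest, Ssr3 and Ssr2 at 0.27 and 0.21, and Ssr1 last.

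The 3 signal peptidase genes were ordered as Spcs1 with 190 and 269 CPM (log2 ratio 0.51), Spcs2 with 280 and 337 CPM (0.27) and Spcs3 with 115 and 118 CPM (0.03, interval holding 1). Of the OST genes, Dad1 was at 402 and 585 CPM (0.54), Rpn2 at 187 and 240 CPM (0.36) and Ostc at 216 and 269 CPM (0.31). Rpn1 was at 118 and 144 CPM (0.29) and Ddost at 203 and 247 CPM (0.29). Ost4, the smallest subunit, went the other way, with 108 CPM in WT against 90.4 CPM in HFD, a log2 ratio of -0.25 and the lowest of the 52. It was also lower in the other classes, with log2 ratios of -0.38 in α-like, -0.59 in δ-like and -0.71 in endothelial-like cells, the α-like and δ-like intervals holding a ratio of 1. Among α-like cells of like UMI number, which filled 1 band only, it was at 0.07, so its direction there depended on depth.

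Members whose window held an element had a median log2 ratio of 0.40 in β-like cells (14 genes, -0.05 to 1.48), and those whose window held none a median of 0.27 (30 genes, -0.25 to 0.76). These ranges overlapped. Syvn1, Ero1lb and Canx held an ERSE at 0.20 or below, and Sdf2l1 and Ssr4 held none of the searched strings at 0.76 and 0.66.

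Other genes of the pathway came from a list of 64 measured ER genes outside the set. In β-like cells 51 of them were higher, beside 44.9% of all genes tested. Their median log2 ratio was 0.17, less than the members' 0.27. At least 1.5-fold higher were 3, beside 3.47% of all genes, and 0 were 1.5-fold lower, beside 5.53%. The 3 were Kdelr3 (4.43 and 11.2 CPM, 1.34), Nucb2 (125 and 217 CPM, 0.80) and Sec11c, a catalytic subunit of the signal peptidase (272 and 432 CPM, 0.66). Chaperones of the cytosol and mitochondria had a median of 0.18, with 19 of 22 higher and 2 at least 1.5-fold higher, beside the same shares of all genes. Both medians lay close to the 0.19 of genes of at least 100 CPM, so neither list is read as set apart from abundant genes. In α-like, δ-like and endothelial-like cells the other ER genes had medians of -0.05, 0.07 and 0.01, and the cytosolic and mitochondrial chaperones 0.12, 0.31 and -0.01. Heat-shock genes of the latter list, which also answer to handling of cells, differed between the libraries more than these medians. In endothelial-like cells the summed ratio of the list was 0.79, with log2 ratios of -1.92 for Hspa1a, -1.59 for Hspa1b and -1.44 for Dnajb1, and in δ-like cells the same genes were at -0.91, -0.93 and -0.80. In α-like cells Hspa1a was at 1.15 and Dnajb1 at -0.91, and in β-like cells at 0.27 and -0.06. Their part in the members' values was not tested.

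The difference in depth per cell was met by comparing cells of like UMI number. In the 5 bands of UMIs per cell the summed ratio of the members in β-like cells lay between 1.29 and 1.36. In every band in which they had 50 UMIs, 23 members were higher in HFD and 3 were lower, which were Ost4, Atf6 and Ero1l. No share of all genes was set beside these counts, so they are not read as particular to the members. Herpud1 ranged from 1.06 to 1.40 on the log2 scale, Hspa5 from 0.34 to 0.91, Sdf2l1 from 0.57 to 1.16 and Ssr4 from 0.44 to 1.02. Xbp1 was higher in 2 bands and lower in the others.

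**Figure D2:**
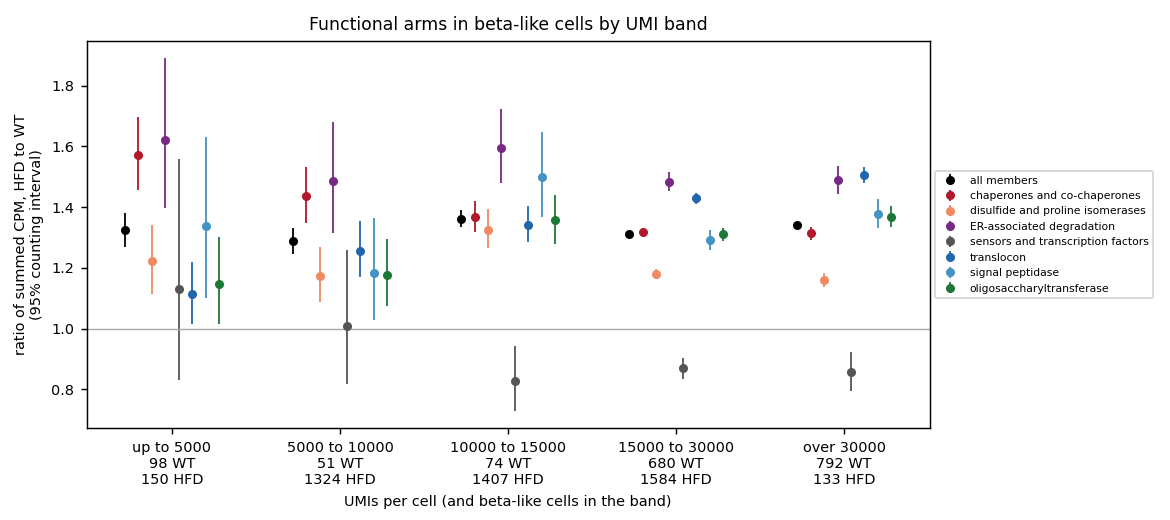
Ratio of summed CPM in HFD to WT β-like cells for all members and for each arm within 5 bands of UMIs per cell, with 95% counting intervals and the number of cells under each band. The value for all members stays between 1.29 and 1.36, and the sensors lie below 1 in the 3 bands above 10000 UMIs.

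The 2 libraries filled different clusters of β-like cells. The members had been kept out of the clustering, but other genes of the stress response had not. Chac1, Trib3 and Ddit3 were among the leading genes of cluster 5, and Dapl1 led clusters 12 and 13. The clusters therefore cannot be taken as independent of the members. Clusters 0, 1, 3 and 4 held 1651 of the 1695 WT cells and 1343 HFD cells. Clusters 5, 12 and 13 held 3255 HFD cells and 44 WT cells. The WT profile is thus mainly that of the first set and the HFD profile mainly that of the second. The members summed to 9772 CPM in WT cells of the first set, 11023 CPM in HFD cells of the first set and 13339 CPM in HFD cells of the second. Insulin mRNA in these was 60.9%, 56.2% and 57.3% of UMIs, the median UMI number per cell 28603, 10688 and 13215, and the acinar genes 190 CPM, 697 CPM and 577 CPM. Both the members and the acinar genes were thus lowest in the WT cells, and the part of acinar RNA was not tested.

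Within the shared clusters, the difference between HFD and WT varied by cluster. The members' median log2 ratio lay below that of all genes in clusters 0 (0.05 beside 0.19) and 1 (0.05 beside 0.18). It lay above in clusters 3 (0.18 beside 0.02) and 4 (0.26 beside 0.20). Higher in HFD were 33, 31, 35 and 46 of 52 members in clusters 0, 1, 3 and 4, and 1.5-fold higher 1, 2, 1 and 6. Pooled values mix clusters in different shares, with 756 WT and 202 HFD cells in cluster 4 and 100 and 587 in cluster 1. When pooled, 39 of 52 members were higher in HFD beside 71.1% of the 11345 genes tested. Their pooled median log2 ratio was 0.09 beside 0.13 for all genes. Of the members, 0 were 1.5-fold lower, where 2.42% of all genes were, and 1 member was 1.5-fold higher, where 4.36% were. That member was Herpud1, with 196 CPM in WT against 435 CPM in HFD. Its log2 ratio was 0.90 to 1.21 across the 4 clusters, and it was the only member past 1.5-fold in each, where 0.611% of all genes were. Hspa5 was at 588 and 794 CPM, a pooled log2 ratio of 0.43, below the 0.50 to 0.67 of the single clusters, which the libraries fill in different shares. In all, 20 members were higher in HFD in each of the 4 clusters, beside 29.3% of the 8024 genes with 50 UMIs in each of them, and 3 were lower in each, beside 3.73%. Above the median gene in each cluster were 6, beside 12.5% of all genes, and these were Hspa5, Hsp90b1, Dnajb11, Herpud1, Sel1l and Derl1, that is 3 chaperones and 3 ERAD genes. Below the median gene in each cluster were 8, beside 12% of all genes, namely Ost4, Ostc, Pdia4, Dnajc10, Ssr2, Ssr3, Sec62 and Spcs3.

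Within the HFD library, the cells of clusters 5, 12 and 13 differed from those of the shared clusters in other members. There, 41 of 52 members were higher, beside 22.3% of 11188 genes, with a median log2 ratio of 0.22 beside -0.22 for all genes, and 6 were 1.5-fold higher beside 1.82% of all genes and 0 were 1.5-fold lower beside 10.7%. Derl3 stood at 17.8 CPM in the shared clusters and 44.6 CPM in the others (log2 ratio 1.33). Fkbp11 stood at 134 and 245 CPM (0.87), Creld2 at 72.9 and 128 CPM (0.81) and Sdf2l1 at 184 and 320 CPM (0.80). Manf was at 477 and 719 CPM (0.59) and Ssr4 at 710 and 1072 CPM (0.59). Herpud1, by contrast, was at 435 and 488 CPM (0.17) and Hspa5 at 794 and 915 CPM (0.20), while Xbp1 and Canx were lower in these clusters (-0.26 and -0.25). Both sides of this comparison came from 1 library, so they shared dissociation and sequencing. Cells were not assigned to the pooled mice, so the clusters may differ in which mice they came from. The comparison is a description of clusters with no test.

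The 7 members past 1.5-fold in β-like cells therefore reached it in different ways. Herpud1, Creld2 and Manf were higher in HFD in every shared cluster, as were 29.3% of all genes. Herpud1 was higher by at least 0.90 on the log2 scale, Creld2 by 0.06 to 0.58 and Manf by 0.02 to 0.34. The median gene lay at 0.02 to 0.20 in these clusters. Herpud1 was above the median gene in each of them, but Creld2 and Manf were not. For Sdf2l1, Fkbp11, Ssr4 and Manf the pooled log2 ratio within the shared clusters was 0.09 to 0.21, and for Creld2 and Derl3 it was 0.36 and 0.41, with Derl3 ranging from -0.22 to 1.26 and Fkbp11 from -0.27 to 0.51 between clusters. Pdia4 and Ppib were lower when the shared clusters were pooled (-0.37 and -0.19), Pdia4 in all 4 of them but Ppib in 2 of 4 (-0.45 to 0.35), and higher in clusters 5, 12 and 13 than in the shared HFD cells (0.48 and 0.53), which left them at -0.02 and 0.21 over all β-like cells.

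**Figure D3:**
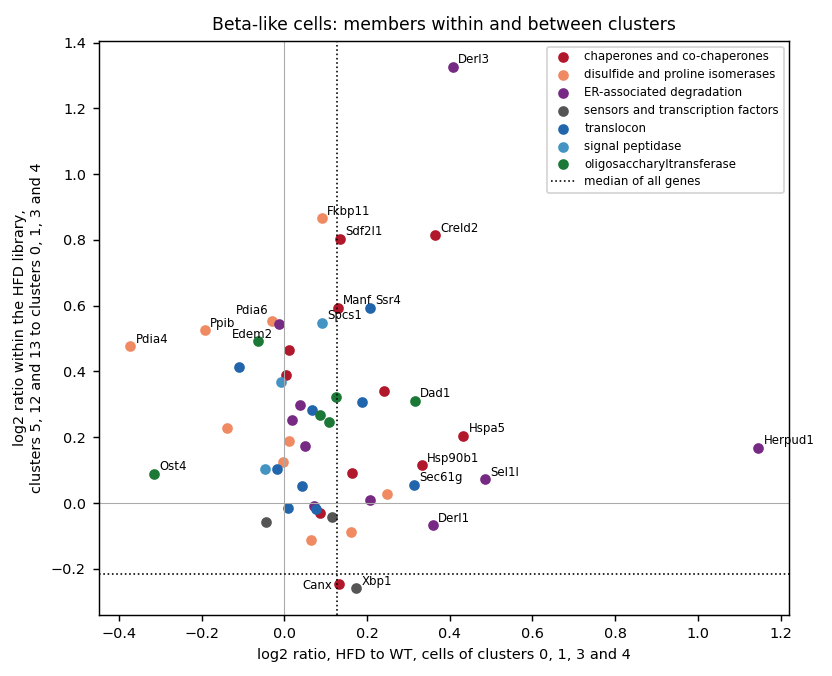
For each member in β-like cells, the log2 ratio of HFD to WT within clusters 0, 1, 3 and 4 (horizontal axis) against the log2 ratio of clusters 5, 12 and 13 to those clusters within the HFD library (vertical axis), with medians of all genes as dotted lines. Herpud1 lies far right at 1.15 and low at 0.17, and Derl3, Fkbp11, Creld2 and Sdf2l1 lie high at 0.80 to 1.33.

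An insulin-rich cluster led by haemoglobin genes was not named and not part of these values (96 WT and 927 HFD cells). Its members had a median log2 ratio of 0.12 beside 0.33 for all genes, and 1 was 1.5-fold higher, beside 23% of the 8333 genes tested there.

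The members were also counted in single β-like cells, which show the spread between cells and not between mice. When each cell was thinned to 5000 UMIs, leaving out 98 WT and 150 HFD cells with fewer, the median WT cell held 48 UMIs of the members (quartiles 39 and 56) and the median HFD cell 61 (51 and 73). Above the WT median lay 80.6% of HFD cells and 46.8% of WT cells. The unthinned medians were 9476 and 12284 CPM. For chaperones the medians were 14 and 19 UMIs, for the translocon 10 and 14 and for ERAD 3 and 5, with 71.8%, 76.1% and 74.9% of HFD cells above the WT median. The sensors had a median of 1 UMI in both libraries, and no difference is read from so low a count. For single genes the variance relative to the mean was taken, where counting alone gives 1 and which tends to grow with the mean. It was largest for Hspa5, at 1.78 in WT and 2.13 in HFD. In HFD Herpud1 (1.63) and Ssr4 (1.59) followed. These are abundant genes, with HFD means of 4.51 UMIs for Hspa5, 2.37 for Herpud1 and 4.69 for Ssr4. The order is therefore not read as a ranking of genes by their spread between cells.

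**Figure D4:**
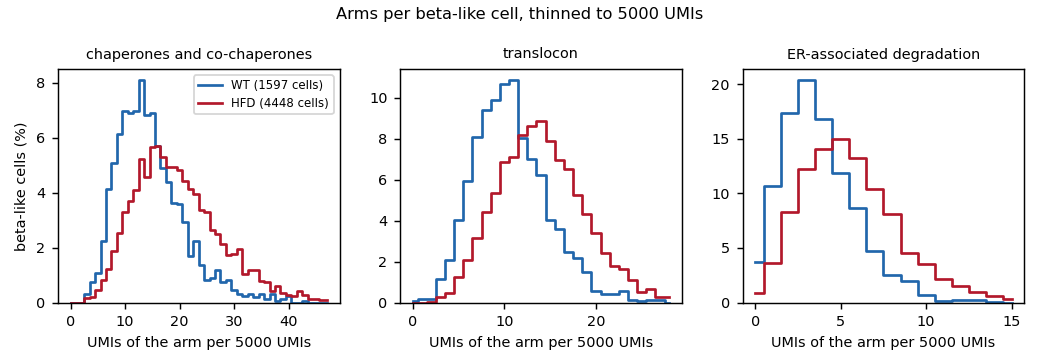
Share of β-like cells (%) by the number of UMIs of the chaperones, the translocon and the ERAD genes in a cell thinned to 5000 UMIs, in WT (1597 cells) and HFD (4448 cells). The HFD curves lie to the right of the WT curves as a whole, with medians of 19 against 14, 14 against 10 and 5 against 3 UMIs.

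In the other classes the members together differed less between the libraries than in β-like cells, with summed ratios of 1.08 in α-like, 1.05 in δ-like and 1.08 in endothelial-like cells, and the difference between classes was not tested. Among α-like cells, 44 members had 50 UMIs, 25 of them were higher in HFD beside 35.5% of all genes, and the median log2 ratio was 0.03 beside -0.12 for all genes. At least 1.5-fold higher was 1 member, beside 2.98% of all genes, and 1 was 1.5-fold lower, beside 10.3%. These were both ERAD channel genes, Derl1 with 17 UMIs in WT and 47 in HFD (25.9 and 47.0 CPM, log2 ratio 0.86, ratio interval 1.02 to 3.37) and Derl2 with 33 and 32 UMIs (50.2 and 32.0 CPM, -0.65, interval 0.38 to 1.07, which held 1). Of the 28 members of at least 100 CPM, 17 were higher beside 41.2% of such genes, and 0 were 1.5-fold higher or lower beside 1.73% and 4.95%. The chaperones were the arm with the highest summed ratio (1.16, 1.09 to 1.24), with Hspa5 at 508 and 623 CPM and Hsp90b1 at 478 and 622 CPM.

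δ-like cells gave 37 members with 50 UMIs, 20 of them higher in HFD beside 53.6% of all genes, and the median log2 ratio of 0.03 was that of all genes. None was 1.5-fold higher, beside 5.93% of all genes, and 2 were 1.5-fold lower, beside 6.25%. Ssr3, the γ subunit of TRAP, had 47 UMIs in WT and 24 in HFD (115 and 68.3 CPM, log2 ratio -0.75, ratio interval 0.35 to 0.99), and Ost4 had 49 and 28 UMIs (120 and 79.7 CPM, -0.59). Hsp90b1 was higher, at 764 and 996 CPM (0.38, ratio interval 1.12 to 1.52). Of the 29 members of at least 100 CPM, 17 were higher beside 57.5% of such genes, and 0 were 1.5-fold higher or lower beside 5.23% and 4.17%. The ratio intervals of 33 of the 37 members held 1, beside 1622 of the 1856 genes tested, so most differences in this class were not detectable at this depth.

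In endothelial-like cells, 23 of 40 members were higher in HFD beside 45% of all genes, and the median log2 ratio was 0.09 beside -0.05. The 2 members at least 1.5-fold higher, beside 5.8% of all genes, were transcription factors of the stress response, of which Xbp1 was level and Atf6 slightly lower in β-like cells. Xbp1 had 194 CPM in WT against 372 CPM in HFD (log2 ratio 0.94, ratio interval 1.59 to 2.32) and Atf6 at 39.2 and 72.3 CPM (0.88, interval 1.19 to 2.84). The 5 members at least 1.5-fold lower, beside 12.3% of all genes, were Sel1l with 69 and 14 UMIs (51.0 and 25.3 CPM, -1.01), Pdia4 with 69 and 15 UMIs (51.0 and 27.1 CPM, -0.91), Fkbp2 (74.6 and 41.6 CPM, -0.84), Ost4 (130 and 79.5 CPM, -0.71) and Dnajb9 (143 and 92.2 CPM, -0.63). The ratio intervals of these 5 lay below 1. Of the 26 members of at least 100 CPM, 16 were higher beside 58.1% of such genes, 1 was 1.5-fold higher beside 6.6% and 2 were 1.5-fold lower beside 5.09%. Insulin mRNA was 0.417% of the UMIs of this class in WT and 0.981% in HFD, and subtracting a β-like share in proportion to Ins2 left the median at 0.09. Markers of some other cell types also differed between the libraries in this class. The 7 ductal markers summed to 561 UMIs in WT and 1 in HFD (415 and 1.81 CPM), of which Spp1 gave 373 and 1, Krt19 gave 118 and 0, and Cftr was at 0 in both. The 5 erythroid markers, led by Hbb-bs, summed to 1485 CPM in WT and 725 CPM in HFD, and all 5 were lower. The 6 fibroblast markers summed to 63.5 and 161 CPM with Pdgfra at 0, while the 10 endothelial markers summed to 18668 and 19046 CPM. Pericyte markers were present in both libraries of this class. Their 6 genes summed to 2441 and 2891 CPM (ratio 1.18, 1.12 to 1.26), with 4 of the 6 higher in HFD and Rgs5 at 1538 and 1934 CPM. The class may therefore hold pericytes as well as endothelial cells. The part of these cells or their RNA in the 7 members named above was not tested.

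Herpud1 was the one member among those of the largest β-cell ratios that was also higher, with an interval above 1, in the other classes. It was at 166 and 225 CPM in α-like cells (log2 ratio 0.44), 392 and 509 CPM in δ-like cells (0.38) and 305 and 443 CPM in endothelial-like cells (0.54), each less than the 1.26 of β-like cells.

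**Figure D5:**
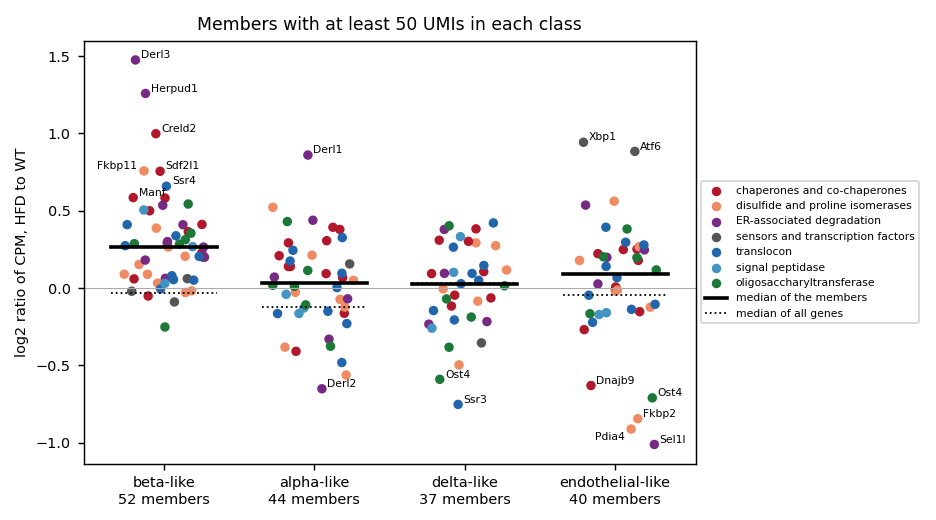
Log2 ratio of CPM in HFD to WT for each member with at least 50 UMIs in 4 classes of islet cells, coloured by arm, with the median of the members as a solid line and of all genes as a dotted line, and with names for members at least 1.5-fold apart. The solid line lies at 0.27 in β-like cells and at 0.03, 0.03 and 0.09 in α-like, δ-like and endothelial-like cells.

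The classes also differed in which members they used, in both libraries. Ero1lb was at 622 CPM in WT β-like cells and at 48.7, 53.9 and 11.8 CPM in WT α-like, δ-like and endothelial-like cells, and its HFD levels were 662, 70.0, 56.9 and 23.5 CPM. Fkbp11 was at 129 CPM in WT β-like cells and at 39.6, 73.4 and 2.96 CPM in the others. Derl3 was at 13.7 CPM in WT β-like cells and rested on 1 to 4 UMIs per library in each other class, so it gave no ratio there. In the opposite order, Ppib was at 332 CPM in WT endothelial-like cells and 87.2 CPM in WT β-like cells, and Vcp at 350 and 153 CPM. Hspa5 was of like level in all, between 508 and 715 CPM in WT and between 623 and 885 CPM in HFD. Insulin mRNA made up 0.436% of the UMIs of WT and 1.38% of those of HFD α-like cells, and 3.92% and 3.12% of those of δ-like cells. The 9 β markers together were 2.82-fold higher in HFD α-like cells, and with a β-like share subtracted the members' median log2 ratio there was 0.01. The part of RNA from β cells in low values of other classes was not tested.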

How the data were processed

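The authors deposited raw UMI counts per gene and barcode for both libraries (10x Genomics 3-prime v3), made with Cell Ranger (v3.0.2) on mm10 per the labels. The maximum of UMIs per cell that the study applied later was not used. Barcodes with at least 500 genes and at most 20% mitochondrial UMIs were kept, and the highest Scrublet scores were left out at 0.8% per 1000 barcodes, because the automatic threshold called 12 WT and 0 HFD barcodes. This left 2498 WT and 6672 HFD cells. Clusters (scanpy v1.11.5, Leiden with igraph v0.11.9 at resolution 1, 50 components, 15 neighbours) were made from variable genes without hormones, Cck, the members or other ER genes, and named from marker genes by a scoring rule chosen after the clusters had been seen. Clusters with fewer than 3 detected markers, or led by markers of another class, stayed unnamed. The gene lists, like the members, were chosen with earlier results known.

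UMIs were summed per class and library and scaled to CPM. Intervals are exact Poisson and Clopper-Pearson conditional intervals at 95% (scipy v1.17.1) and cover counting error only. A gene at 0 in 1 library was set to 3 counts. Genes needed 50 UMIs over both libraries, and a fold of 1.5 stood in for a call. All members are described, with full values for the 3 highest and 3 lowest of each arm of more than 6 genes, all genes of smaller arms, and genes past 1.5-fold in other classes. Hspa5, Ero1lb, the heat-shock genes, single marker genes and the genes of the cluster comparison and of the level comparison between classes were chosen after their values were seen. The calculation of ratios and intervals was checked on simulated Poisson counts. These hold no spread between cells or mice, so the check does not reach beyond counting error. Alternatives were other cell and gene minimums, doublets kept, other scalings, UMI bands, a coarser clustering, purity and subtraction of β RNA; values within shared clusters, with unnamed insulin clusters added and beside genes of at least 100 CPM were added after seeing the data. Gene positions are GRCm38 (GENCODE) and promoters RefSeq GRCm38.p6. Overlapping or antisense genes and near-identical copies were not separated beyond the deposited counting.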

Additional observations from a re-analysis of the deposited data

Results flagged for a closer look

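Some members lay on opposite sides of 1 in a pair of classes, each with its counting interval on one side, and the difference between the classes was not tested. Between β-like and endothelial-like cells these were Sel1l (log2 ratio 0.54 and -1.01), Fkbp2 (0.15 and -0.84) and Dnajb9 (0.29 and -0.63), all higher in HFD in β-like cells and lower in HFD in endothelial-like cells. Atf6 was the reverse, at 0.88 in endothelial-like and -0.09 in β-like cells. Ssr3 was at 0.27 in β-like and -0.75 in δ-like cells, where it rested on 47 WT and 24 HFD UMIs. In β-like cells alone, 2609 of 12017 genes had intervals above 1 and 3108 had intervals below 1. The share of all genes with such contrasts was not counted, so these are not read as particular to the members. Ductal markers of the endothelial-like class came to 561 UMIs in WT and 1 in HFD, and its erythroid markers to 1485 and 725 CPM. The part of such RNA in the contrasts with that class was not tested.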

How the results depend on the processing

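The members' median log2 ratio in β-like cells was 0.11 when taken within clusters held by both libraries with equal weight, an alternative chosen after seeing the data, below the 0.16 of all genes, and the count past 1.5-fold was then 1. It was 0.18 when CPM were scaled without hormone and mitochondrial genes. Over the other alternatives it lay between 0.24 and 0.32. The count past 1.5-fold in β-like cells was 19 at the smaller fold tried and 2 at a fold of 2, and otherwise 5 to 10. Higher in HFD under all 14 alternatives were 32 of the 52 members, 1 was lower under all (Ost4), and 19 changed direction in at least 1. These counts also have no share of all genes beside them and are not read as particular to the members. In α-like cells the count past 1.5-fold, 1 in the report, was 2 with at most 15000 UMIs per cell, when centred on the median of all genes and with hormone purity, 5 with TMM, 7 with UMI bands (1 band only) and at the smaller fold, and 0 with at least 200 UMIs per gene and at a fold of 2. In δ-like cells it was 1 with at most 15000 UMIs per cell and with at least 20 UMIs per gene, and 5 at the smaller fold. In endothelial-like cells it was 4 with at most 15000 UMIs, TMM or UMI bands, 5 at resolution 0.5, 1 with at least 200 UMIs per gene, 6 at the smaller fold and 0 at a fold of 2. The median of the members ranged from -0.02 to 0.24 in α-like cells, -0.01 to 0.09 in δ-like cells and 0.01 to 0.16 in endothelial-like cells. TMM moved the median of all genes in α-like cells from -0.12 to 0.08. UMI bands and purity gave no value in δ-like cells, where no band held 20 cells of both libraries and no member kept 50 UMIs. No paired analysis was possible because each group held 1 library, and no alternative measures the spread between mice.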
